A study of Homo sapiens with 6 samples.

Results

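Chromosome 10 genes were examined as a block in HEK293 cells, an established human embryonic kidney line, with and without an introduced DNA variant. Members were the genes placed on chromosome 10 in the deposited table whose mean over the 6 libraries was at least 1 FPKM (fragments scaled to exonic length and to the total of assigned counts in the library). This gave 492 members of the 12550 genes that passed the same minimum genome-wide. The table lists 2394 chromosome 10 genes, of which 1280 had a count in any library. The chromosome was selected by the same mutant and wild-type values that are given here, because its genes had been seen to be lower as a group in the mutant libraries. The fold changes of its members, and the calls a genome-wide fit made for them, are therefore given as a description and not as tests of the chromosome or of any list of its genes.

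RNA was measured in 3 libraries of cells carrying rs16851030, introduced by CRISPR homology-directed repair (the mutant group), and in 3 libraries of wild-type HEK293 cells. No drug treatment or time course is named for either group. Poly(A) RNA was sequenced as paired ends. The submitters call the libraries of a group biological replicates. The labels do not say how many edited clones stand behind the mutant libraries. If they share 1 clone, the spread between them does not include the spread between clones, and features of that clone and effects of the variant cannot be told apart.

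Genes of a chromosome, or of a part of it, that is gained or lost as a unit share that change in DNA copies. Transcript levels of most genes tend to scale with copy number. Some genes hold their transcript level by feedback on synthesis or decay, and others answer mainly to stress, nutrients or growth signals, so members of a shifted chromosome need not move equally. HEK293 is a line with an abnormal karyotype that is known to vary between stocks. DNA was not measured in the data used here, and the values below are transcript levels only.

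Libraries held 16013460 to 20349609 assigned counts, of which 545774 to 781025 fell on chromosome 10. Of 6 markers listed for the line, 5 had a mean of at least 1 FPKM; PAX2, itself a chromosome 10 gene, had a mean of 0.165 FPKM. Summed levels of these 6 markers were 104.06 to 106.01 FPKM in mutant and 159.78 to 183.91 FPKM in the wild-type libraries, and most of this sum is VIM, a member. None of 13 markers of blood, liver, endothelial, fibroblast, keratinocyte and myeloid cells reached a mean of 1 FPKM (0 of 13). Their summed levels were 1.52 to 1.63 FPKM in mutant and 0.77 to 0.89 FPKM in wild type, with the collagen gene COL3A1 at 1.06 to 1.16 FPKM in mutant and 0.27 to 0.43 FPKM in wild type, and PTPRC, CD3E and HBB were at 0 in every library. No sequencing batch or date is named in the labels.

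Chromosome 10 genes took 3.48%, 3.45% and 3.46% of the counts of nuclear genes in the mutant libraries. The wild-type libraries gave 4.44%, 4.48% and 4.46%. The groups were far apart relative to their spread, at 3.46% ± 0.0134 in mutant and 4.46% ± 0.0173 in wild type (SD, n = 3 each), a ratio of 0.777. Because these are bulk cultures, fewer cells of a kind and less RNA per cell cannot be told apart in this or any later value.

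The same shift appeared in the typical member. The median log2 fold change, mutant minus wild type, was -0.36 over the 492 members, a fold of 0.777, and 0.01 over the 12058 tested genes of other chromosomes. Each library was also measured against the wild-type average, from which a wild-type library was itself left out. Relative to the other genes, the chromosome 10 median then stood at -0.37, -0.38 and -0.37 in the mutant libraries. It stood at -0.01, 0.00 and 0.00 in wild type. All 9 mutant and wild-type pairs of libraries gave such a median between -0.38 and -0.37, whereas the 6 pairs within a group differed by at most 0.0136. The nuclear chromosomes other than 10, 16, 20 and 22 (and leaving out Y) had medians from -0.05 to 0.06. Chromosome 16 stood at 0.29 over 578 genes, chromosome 20 at -0.13 over 329 and chromosome 22 at -0.16 over 333.

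**Figure D1:**
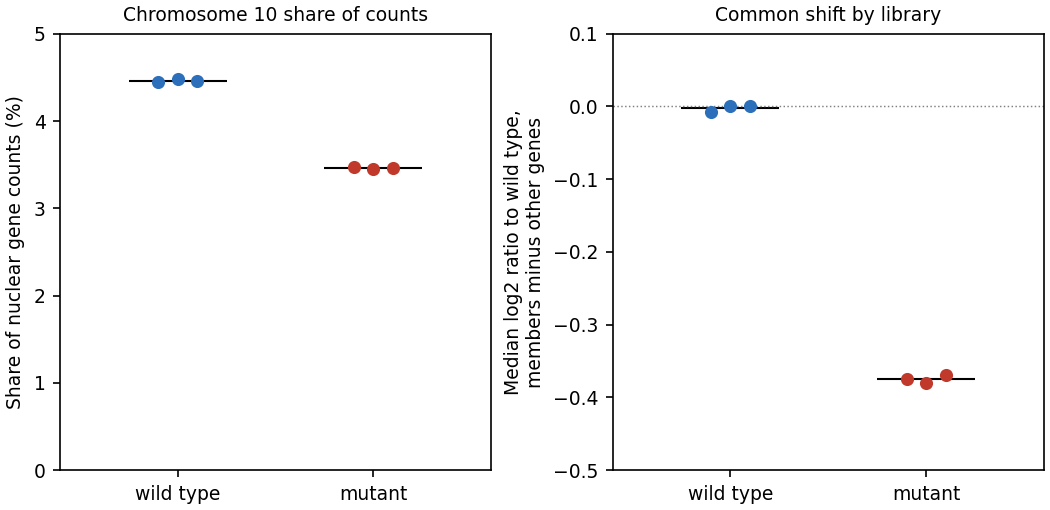
Each library is shown with the share of nuclear counts that fell on chromosome 10 (percent). The other value is the median log2 difference of the 492 members from the wild-type average, minus that of the other genes. A wild-type library was left out of its own average. The 3 mutant libraries lie together near 3.46% and -0.37, and the 3 wild-type libraries near 4.46% and 0.

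Of the 492 members, 385 (78.3%) had a fold change below 0, against 48.9% of the genes of other chromosomes. In a fit over all 12550 genes with edgeR's quasi-likelihood test, 320 members (65.0%) were called lower in the mutant, where 28.7% of all tested genes were. The call used a Benjamini-Hochberg adjusted p below 0.05. The same fit called 44 members (8.94%) higher, where 29.4% of all tested genes were, and made no call for 128. Counted without a model, 311 members (63.2%) had all 3 mutant FPKM values below all 3 wild-type values, where 28.1% of all tested genes did. The reverse order held for 52 members (10.6%), where 34.8% of all tested genes had it, and the groups overlapped for the remaining 129. Since this contrast chose the chromosome, nothing further is read from these shares.

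Members were spread about their own median much as other genes were about theirs. The middle 50% of members lay between -0.56 and -0.06, an interquartile range of 0.498, and the corresponding range on all other chromosomes together was 0.489. A band of 0.25 on either side of the chromosome 10 median held 260 members (52.8%), and the same band about the median of other chromosomes held 51.5% of their genes. Members more than 0.5 above the chromosome median numbered 66 (13.4%), against 13.3% elsewhere, and those more than 0.5 below it numbered 23 (4.67%), against 7.16% elsewhere. Only 59 members (12.0%) had a fold change within 0.1 of 0, while 22.4% of the genes of other chromosomes did.

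**Figure D2:**
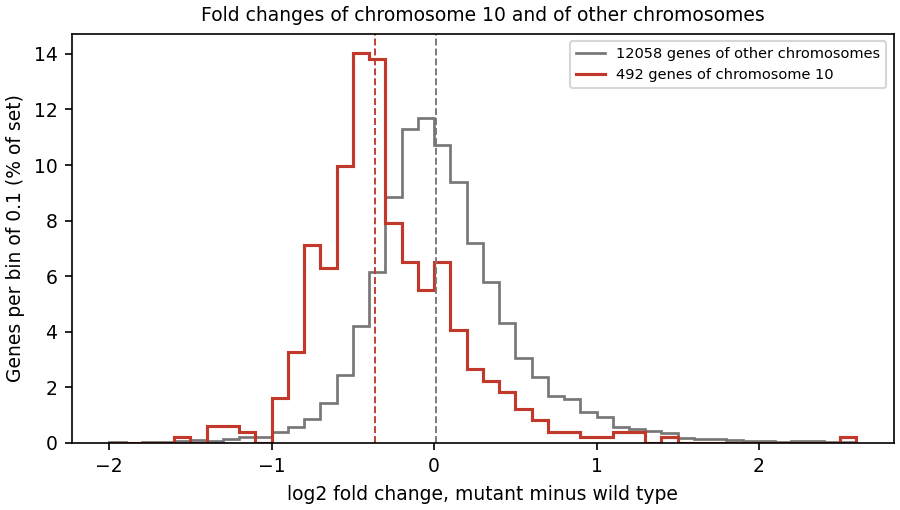
The histogram gives the percent of genes in each bin of 0.1 in log2 fold change, for the 492 chromosome 10 members and for the 12058 genes of other chromosomes. The chromosome 10 distribution is shifted to the left, with its fullest bin between -0.5 and -0.4, and the 2 distributions have a similar width.

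The lower level ran along the chromosome from the first member, ZMYND11, to the last, MTG1. The 113 members of the short arm had a median log2 fold change of -0.38, and the 379 members of the long arm had -0.36. Divided into 8 consecutive blocks, the members gave block medians from -0.44, in the block from SKIDA1 to ZNF485 (starts at 21.5 to 43.6 Mb), to -0.29, in the block that begins at RPS24 (78.0 Mb). A median over each run of 25 neighbouring members was below 0 in all 468 runs, and 414 of the runs (88.5%) gave a value between -0.5 and -0.25. The lowest value, -0.49, was shared by overlapping runs, the first of which extended from ZNF248 at 37.8 Mb, on the short arm, to an unnamed gene at 46.0 Mb on the long arm. The highest run stood at -0.13, from PDCD4-AS1 at 110.9 Mb to RAB11FIP2 at 118.0 Mb.

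Departures of neighbouring members from the chromosome median were nearly uncorrelated. Over 491 pairs of adjacent members, departures had a Pearson r of -0.0285 and a Spearman rho of 0.0293, given as a description across genes that come from the same 6 libraries. No run of 25 members lay at or above 0 on either arm.

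**Figure D3:**
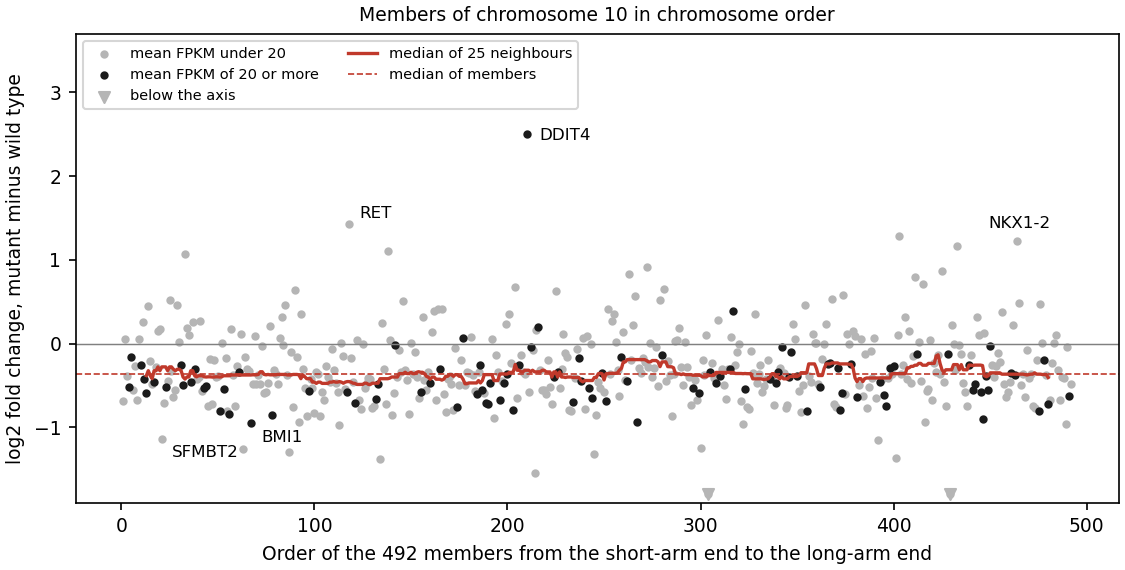
Every member is plotted in chromosome order, with its log2 fold change (mutant minus wild type) on the vertical axis, black where the mean was at least 20 FPKM, and with 2 members drawn as triangles below the axis. The running median of 25 neighbours stays between -0.49 and -0.13 along the whole chromosome, and DDIT4 stands alone at 2.50.

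The shift was clearer in abundant transcripts. Among 31 members with a mean of at least 50 FPKM the median log2 fold change was -0.50 and 93.5% were below 0, and among 71 members of 20 to 50 FPKM the median was -0.45 and 97.2% were below 0. The 98 members of 10 to 20 FPKM had a median of -0.39, and the 103 members of 5 to 10 FPKM had -0.36. The median was -0.30 for 114 members of 2 to 5 FPKM and -0.09 for 75 members of 1 to 2 FPKM, of which 53.3% were below 0.

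Genes of other chromosomes showed the same trend with level, so the chromosome 10 difference varied less. Their medians ran from 0.18 in the class of 1 to 2 FPKM to -0.07 in the class of at least 50 FPKM. Taking these off, the chromosome 10 difference was -0.27 in the lowest class, -0.40, -0.36, -0.36 and -0.37 in the next 4, and -0.43 in the highest. Of the 66 members more than 0.5 above the chromosome median, 24 had a mean of 1 to 2 FPKM and another 24 had 2 to 5 FPKM. Only 3 had 20 FPKM or more (2 of 20 to 50 FPKM and 1 above that). Most departures upward thus belonged to weakly expressed genes, and other chromosomes showed similar shares about their own median. The share more than 0.5 above was 32.0% of members at 1 to 2 FPKM, against 29.2% elsewhere. At 2 to 5 FPKM it was 21.1%, against 19.0% elsewhere. The median SE of members was 0.16 at 1 to 2 FPKM and 0.09 at 2 to 5 FPKM, against 0.05 at 20 to 50 FPKM.

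**Figure D4:**
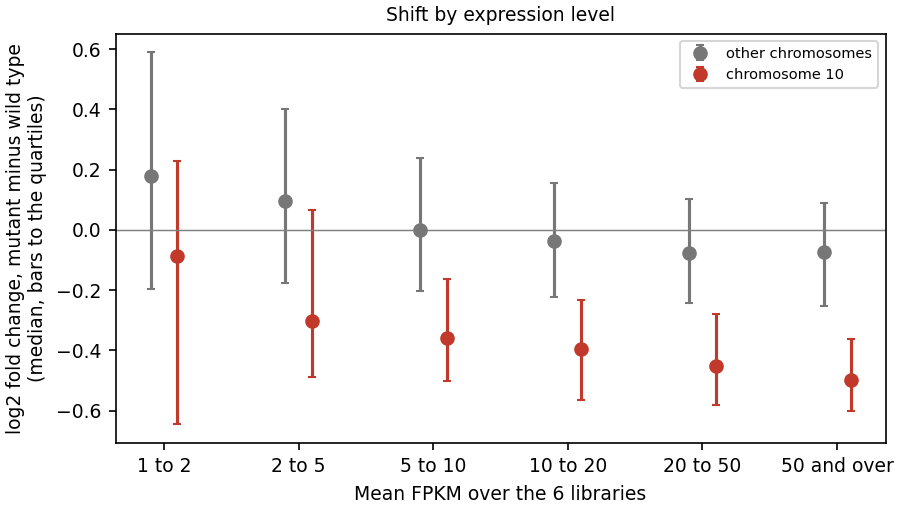
Median log2 fold changes (mutant minus wild type) are shown by class of mean FPKM, for members and for genes of other chromosomes. Both series are highest in the class of 1 to 2 FPKM, and the gap between them lies between -0.27 and -0.43 in every class.

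Medians also differed by gene kind, but kinds were not matched for expression level or counts, and the part of level in these differences was not tested. The 417 protein-coding members had a median log2 fold change of -0.37 against 0.01 for protein-coding genes elsewhere, and 339 of them were below 0. The 35 antisense and other long noncoding members had a median of 0.04, and long noncoding genes elsewhere had a median of 0.15. Of the 35, 9 (25.7%) were called lower and 6 (17.1%) higher, where 28.7% and 29.4% of all tested genes were. The 24 processed pseudogenes, which are inserted copies of spliced transcripts, had a median of -0.15, and processed pseudogenes elsewhere had a median of -0.07. Of the 24, 3 (12.5%) were called lower and 1 (4.17%) higher. The remaining 16 members were of all other kinds or had no entry in the annotation used. Their median was -0.72 against 0.02 for such genes elsewhere, with 7 (43.8%) called lower and 0 higher. They include genes with very few counts, such as the small nuclear RNA gene RNU6-1121P, with 0, 1 and 0 counts in mutant and 3, 2 and 6 in wild type.

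Pseudogene reads are uncertain, because near-identical transcripts of the parent gene can be assigned to the copy. A parent was found by name for 22 of the 24, and all 22 parents lie on other chromosomes, with a median log2 fold change of 0.01. The 22 copies had a median of -0.12, and 12 of them were nearer to their parent's fold change than to the chromosome 10 median. RPL13AP5, a copy of the ribosomal protein gene RPL13A of chromosome 19, stood at 0.39, and RPL13A at 0.51. RHEBP2, a copy of the GTPase gene RHEB of chromosome 7, stood at -0.02, and RHEB at 0.06. NPM1P24, with a mean of only 1.095 FPKM, lay far below its parent and the chromosome median, at -1.54 (SE 0.36), while its parent NPM1 stood at -0.16. Whether parental reads contribute to these values was not tested.

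Genes at the centre of the distribution were picked as those nearest the chromosome median, among protein-coding members with a mean of at least 20 FPKM. EIF4EBP2, a repressor of cap-dependent translation (chromosome 10, 70404145 to 70428618, plus strand, GRCh38), had 40.1, 37.87 and 38.76 FPKM in mutant and 48.33, 50.35 and 48.13 FPKM in wild type. The groups did not overlap, and the fold change was -0.36 (SE 0.04). BUB3, a spindle checkpoint protein, had 33.39, 33.9 and 33.61 FPKM in mutant and 42.37, 41.75 and 41.43 FPKM in wild type. RPS24, a protein of the small ribosomal subunit, had 96.98, 110.45 and 103.73 FPKM against 126.85, 125.35 and 136.58 FPKM. All of these, and the amino acid enzyme OAT at -0.37, lay on the chromosome's common shift because they were picked for it. Their mutant values were below wild type in each library, an order that 63.2% of all members had. By level, members of 20 to 50 FPKM had a lower median of -0.45, and those of at least 50 FPKM had -0.50.

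The other members are described by role, from lists of known chromosome 10 genes. Over the 12 lists, 229 different members were tested. List medians are to be read beside the chromosome's own -0.36 and the 0.01 of other chromosomes. Lists were not matched for level, and the member median ran from -0.09 at 1 to 2 FPKM to -0.45 at 20 to 50 FPKM. At 50 FPKM or more it was -0.50, so a lower median on a list of abundant genes is not read here as particular to its role. How far level accounts for a list median was not tested. Counts of calls are to be read beside the 65.0% of all members called lower and 8.94% called higher, and the 28.7% and 29.4% of all tested genes. The lists do not hold every member of a role, and a statement on a list covers its listed genes only.

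The 25 genes on the list of mitochondrial proteins were all below 0, with a median of -0.52, and 22 (88.0%) were called lower and 0 higher. Other members also encode mitochondrial proteins, among them DHTKD1 at 0.46 and MSRB2 at 0.09, which stand on the enzyme list. ATP5F1C, the gamma subunit of ATP synthase, had 77.91, 82.65 and 79.28 FPKM in mutant and 111.42, 109.32 and 114.85 FPKM in wild type (fold change -0.52). TFAM, the factor that packages and transcribes mitochondrial DNA, had 42.67, 39.13 and 40.85 FPKM against 53.78, 55.72 and 55.99 FPKM (-0.46). TIMM23, a channel of protein import, stood at -0.66, but a near-identical neighbour, TIMM23B, makes its reads uncertain. Of the 3 members without a call, the calcium uniporter pore MCU stood at -0.07 and the membrane ATPase ATAD1 at -0.04.

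Listed members of RNA processing, the ribosome and translation were below 0 in 25 of 27 cases, with a median of -0.55, and 25 (92.6%) were called lower and 1 higher. NOLC1, a nucleolar chaperone of small nucleolar RNA particles, had 131.46, 131.57 and 132.84 FPKM in mutant and 194.18, 196.86 and 190.8 FPKM in wild type (-0.59). HNRNPF, a splicing factor, had 96.12, 98.99 and 97.25 FPKM against 155.64, 154.51 and 158.17 FPKM (-0.71). EIF3A, the largest subunit of a translation initiation factor, was less shifted at -0.25. The splicing-related gene HNRNPH3 was not called and is described with the little-changed genes.

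All 17 members of the cell cycle list were called lower, with a median of -0.40. CDK1, the kinase that drives entry into mitosis, had 46.02, 43.54 and 46.17 FPKM in mutant and 52.95, 54.78 and 55.27 FPKM in wild type (-0.30). KIF11, the motor that separates spindle poles, had 37.53, 36.21 and 37.14 FPKM against 51.45, 54.76 and 50.77 FPKM (-0.53). SMC3, a cohesin subunit, stood at -0.47, and the proliferation antigen MKI67 at -0.20. The 9 listed DNA repair members were below 0, with 6 (66.7%) called lower, 3 without a call (POLL, NSMCE4A and MMS19) and a median of -0.34. DNA2 belongs to both lists.

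Listed chromatin and transcription factor members were below 0 in 23 of 27 cases, with a median of -0.44, 22 (81.5%) called lower and 1 higher. SIRT1, a protein deacetylase, had 16.1, 15.75 and 15.64 FPKM in mutant and 24.06, 27.75 and 26.34 FPKM in wild type (-0.75). GATA3 was the member called higher, at 0.52, from 1.78, 1.63 and 2.1 FPKM in mutant and 1.26, 1.26 and 1.21 FPKM in wild type. The 12 ZNF genes on the zinc finger list were below 0, with a median of -0.50 and 11 (91.7%) called lower. ZNF488, a member outside the list, stood at 0.04. Zinc finger proteins with other names went both ways, with GATA3 and KLF6 (0.06) above 0 and ZEB1 called lower at -0.30. ZNF503 stood at -0.65 and its antisense neighbour ZNF503-AS2 at -1.32; they overlap on opposite strands, strand use in counting is not stated, and reads from the overlap cannot be told apart.

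Enzymes of sugar, amino acid and lipid metabolism were less uniform. Of 25 listed members, 19 (76.0%) were called lower, 3 higher and 3 had no call, with a median of -0.29. ECHS1, a fatty acid oxidation enzyme, had 95.4, 97.41 and 97.12 FPKM in mutant and 142.13, 143.96 and 149.42 FPKM in wild type (-0.62). PGAM1, a glycolytic enzyme with known processed copies elsewhere in the genome, stood at -0.54. The 3 called higher were CHST15 at 0.23, the phytanic acid enzyme PHYH at 0.26 and DHTKD1, described below.

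Listed signalling members had a median of -0.40, with 13 of 19 (68.4%) called lower, 2 (10.5%) called higher and 4 without a call, shares close to those of the chromosome. PPP3CB, a catalytic subunit of the phosphatase calcineurin, had 12.59, 12.53 and 12.59 FPKM in mutant and 16.69, 18.87 and 17.56 FPKM in wild type (-0.53). The 2 called higher were the G protein-coupled receptor kinase gene GRK5 at 0.32 and the receptor tyrosine kinase RET. RET, described because of its value, had 2.03, 2.02 and 1.81 FPKM in mutant and 0.7, 0.64 and 0.79 FPKM in wild type, a fold change of 1.43 (SE 0.12), the highest among members after DDIT4.

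Among 30 listed trafficking and chaperone members, 23 (76.7%) were called lower, 1 (HSPA12A) higher and 6 had no call, with a median of -0.45. PSAP, the precursor of lysosomal saposins, had 137.25, 137.14 and 137.34 FPKM in mutant and 159.74, 163.39 and 155.21 FPKM in wild type (-0.25), and GDI2, a Rab regulator, stood at -0.58. The 17 listed cytoskeleton and adhesion members had 13 (76.5%) called lower, 3 higher and 1 without a call, with a median of -0.36. VIM, the intermediate filament protein vimentin, had 86.13, 87.82 and 88.28 FPKM against 149.36, 143.25 and 165.66 FPKM (-0.84). Of 17 listed ubiquitin pathway members, 12 (70.6%) were called lower, 1 (ASB13) was called higher and 4 had no call, with a median of -0.36, both close to the chromosome's own values. TNKS2, the poly(ADP-ribose) polymerase tankyrase 2, stood at 0.04 with its 3 mutant values just above the 3 wild-type values, and was not called.

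The list of genes known for acute induction was the most divided. Its 12 members had a median of -0.02, with 5 (41.7%) called lower, 4 (33.3%) higher and 3 without a call. The 4 higher were the hypoxia-inducible collagen hydroxylase P4HA1 at 0.19, the MYC antagonist MXI1 at 0.32, the interferon-induced IFIT1 at 0.65 and DDIT4. The 5 lower were BAG3, IFIT5, GOT1, ALDH18A1 and IDI1. IFIT1 lies within the span of LIPA on the other strand.

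Little-changed genes were found even among abundant transcripts. Of the 98 protein-coding members with a mean of at least 20 FPKM, 95 were below 0. Those with the smallest change included ERLIN1, HNRNPH3, SCD, TRUB1, PDCD4, LIPA and IDI1, with fold changes between -0.16 and 0.07. They were picked from the measured values, and each stands 0.20 or more above the chromosome median. TRUB1, PDCD4, LIPA and IDI1 were nonetheless called lower, at -0.12, -0.13, -0.14 and -0.16.

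ERLIN1 (100150094 to 100186033, minus strand), a protein of the endoplasmic reticulum that regulates sterol sensing and receptor degradation, had 26.24, 24.23 and 25.24 FPKM in mutant and 25.84, 25.18 and 24.97 FPKM in wild type. The groups overlapped, and the fold change was -0.04 (SE 0.05). SCD, the desaturase that makes monounsaturated fatty acids and a known sterol- and nutrient-regulated gene, had 283.97, 271.37 and 270.74 FPKM against 311.26, 289.43 and 262.74 FPKM (-0.10, SE 0.05). Wild-type libraries thus varied more than the difference between groups for SCD.

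HNRNPH3 had 73.35, 70.37 and 73.39 FPKM in mutant and 59.99, 74.8 and 68.02 FPKM in wild type. The first wild-type library is the low value, and the groups overlap (0.07, SE 0.06). HNRNPH3 overlaps PBLD and RUFY2 on the other strand. IDI1, an isoprenoid enzyme of the cholesterol pathway, had 34.84, 37.59 and 37.03 FPKM against 37.87, 40.83 and 40.74 FPKM, and LIPA, the lysosomal acid lipase, had 33.12, 35.23 and 33.22 FPKM against 36.41, 36.34 and 36.73 FPKM. Neither of these had overlapping groups.

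**Figure D5:**
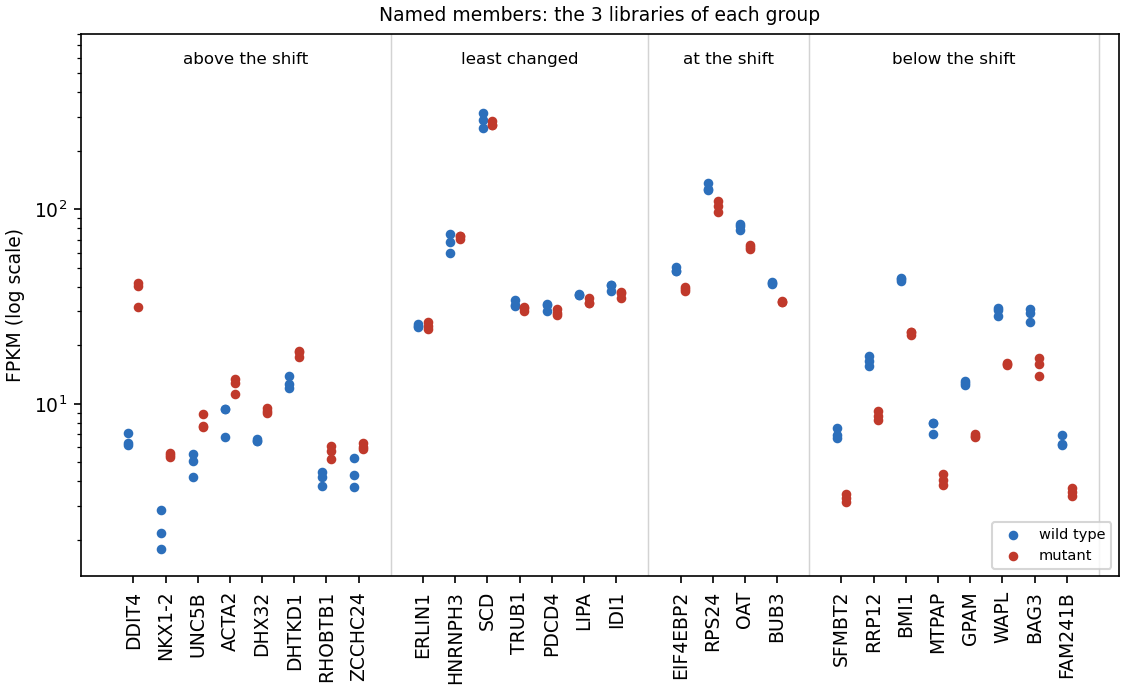
FPKM in each of the 6 libraries, on a log axis, is plotted for members far above the chromosome median, near no change, on the common shift and far below it. DDIT4 separates most widely, with 31.67 to 41.84 FPKM in mutant and 6.17 to 7.11 FPKM in wild type, and ERLIN1 and SCD show overlapping groups.

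DDIT4 departed furthest above the chromosome median. It encodes a stress-induced inhibitor of mTORC1 signalling, and it lies at 72273919 to 72276036 on the plus strand. Its level was 31.67, 40.3 and 41.84 FPKM in mutant and 7.11, 6.27 and 6.17 FPKM in wild type. The groups were widely separated, and the fold change was 2.50 (SE 0.10), 5.67-fold higher. This is 2.87 above the chromosome median.

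The promoters of 3 members are printed because they stand for the 3 behaviours: DDIT4 for the largest departure above, BAG3 for a stress gene below, and EIF4EBP2 for the common shift. Each window runs from 250 bases before to 50 bases after the RefSeq start (GRCh38.p14), and capitals mark matches to the motifs named after them. DDIT4 is chr10:72273674-72273973, BAG3 is chr10:119651130-119651429 and EIF4EBP2 is chr10:70403895-70404194, all on the plus strand.
DDIT4: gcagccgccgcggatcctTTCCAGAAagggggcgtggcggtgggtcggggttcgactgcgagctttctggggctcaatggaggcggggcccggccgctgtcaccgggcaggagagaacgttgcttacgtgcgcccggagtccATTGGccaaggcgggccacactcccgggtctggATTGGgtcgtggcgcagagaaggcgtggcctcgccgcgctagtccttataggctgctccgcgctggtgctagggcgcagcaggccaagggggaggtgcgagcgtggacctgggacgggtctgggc
BAG3: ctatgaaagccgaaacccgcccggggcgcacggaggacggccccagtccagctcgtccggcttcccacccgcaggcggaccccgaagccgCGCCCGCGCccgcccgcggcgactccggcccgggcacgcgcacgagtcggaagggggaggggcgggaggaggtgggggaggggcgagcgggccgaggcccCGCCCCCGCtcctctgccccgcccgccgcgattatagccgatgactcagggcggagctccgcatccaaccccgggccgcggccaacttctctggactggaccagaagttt
EIF4EBP2: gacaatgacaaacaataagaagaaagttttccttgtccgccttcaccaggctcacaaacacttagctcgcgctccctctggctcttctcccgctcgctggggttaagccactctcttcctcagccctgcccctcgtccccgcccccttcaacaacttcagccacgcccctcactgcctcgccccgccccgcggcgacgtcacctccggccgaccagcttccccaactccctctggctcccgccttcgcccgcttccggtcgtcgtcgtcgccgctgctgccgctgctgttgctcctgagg

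Motifs were searched on both strands as exact letters, and a match describes letters only. The DDIT4 window holds a match to TTCNNGAA, the tail-to-tail form of the heat shock element, at position -232 from the start, and matches to CCAAT, read as ATTGG, at -108 and -75. The BAG3 window holds matches to GCGNGGGCG, the site of EGR factors, read on the other strand at -160 and -60, and no letters of either heat shock form. The EIF4EBP2 window holds none of the motifs.

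A promoter was found by symbol for 377 of the 492 members, using the first listed start of a gene. TTCNNGAA was in 7.84% of the 27305 promoters of all genes and in 4.77% of members' promoters, and GAANNTTC, the head-to-head form, was in 6.87% and 3.45%. CCAAT was in 35.7% and 36.6%. GCGNGGGCG was in 9.28% of all promoters and 18.3% of members' promoters, and CACGTG, the E-box, was in 7.43% and 11.9%. TGATGNAA, an ATF4 core, was in 3.67% and 3.18%, and TATAAA was in 12.0% and 3.98%. Members' promoters had a median GC content of 65.7% and all promoters 58.3%, and all promoters include those of genes below the expression minimum.

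Within the members, the windows of genes that departed from the shift can be set beside the rest. Median GC content was 69.7% for 46 of the 66 members more than 0.5 above the chromosome median. It was 71.0% for 13 of the 23 members more than 0.5 below it and 65.3% for the others. Members without a promoter found by symbol are left out. TTCNNGAA was in 3 of the 46 windows above and 1 of the 13 below, and CCAAT in 17 and 5. GCGNGGGCG was in 8 of the 46 above and 4 of the 13 below, CACGTG in 4 and 4, and TATAAA in 3 and 0, while TGATGNAA and GAANNTTC were in 0 of either. Each of GCGNGGGCG and CACGTG was thus in 30.8% of the 13 windows below, beside 18.3% and 11.9% of all members' windows, which is a description of few genes. Members with TTCNNGAA had a median fold change of -0.34 and those without it -0.36, both close to the common shift.

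Among protein-coding members with at least 5 FPKM in the higher group, and with groups apart once the common shift is taken off, those next after DDIT4 above the chromosome median were NKX1-2, UNC5B, ACTA2, DHX32, DHTKD1, RHOBTB1 and ZCCHC24. NKX1-2, a homeobox transcription factor gene (124445243 to 124450035, minus strand), had 5.45, 5.35 and 5.58 FPKM in mutant and 2.85, 1.79 and 2.18 FPKM in wild type. Its fold change was 1.23 (SE 0.13), with no overlap. UNC5B, a receptor for netrin, had 8.87, 7.74 and 7.64 FPKM against 5.56, 5.11 and 4.2 FPKM (0.68).

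ACTA2, smooth muscle actin, had 12.86, 13.37 and 11.31 FPKM in mutant and 6.76, 9.4 and 9.41 FPKM in wild type (0.52). DHTKD1, a mitochondrial enzyme of lysine breakdown, had 17.45, 18.63 and 18.47 FPKM against 13.84, 12.72 and 12.13 FPKM (0.46). RHOBTB1 and ZCCHC24 stood at 0.42 and 0.41. In all of these the 3 mutant values were above the 3 wild-type values.

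DHX32, a putative RNA helicase, had 9.49, 9.02 and 9.2 FPKM in mutant and 6.46, 6.57 and 6.44 FPKM in wild type (0.48). It overlaps BCCIP, a cofactor of BRCA2 on the opposite strand, which went the other way at 38.51, 42.06 and 38.35 FPKM against 65.11, 68.74 and 69.11 FPKM (-0.80). Reads from the shared stretch cannot be told apart without strand, so both values carry that limit.

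Below the common shift, the 8 furthest among protein-coding members with at least 5 FPKM in the higher group and groups apart after the shift is taken off were SFMBT2, RRP12, BMI1, MTPAP, GPAM, WAPL, BAG3 and FAM241B. SFMBT2, a Polycomb-related repressor (7158624 to 7411488, minus strand), had 3.28, 3.13 and 3.44 FPKM in mutant and 6.94, 7.52 and 6.66 FPKM in wild type. The fold change was -1.13 (SE 0.06), a ratio of 0.456. BMI1, a Polycomb repressive complex subunit (22321099 to 22331484, plus strand), had 23.36, 22.59 and 23.39 FPKM against 44.47, 42.83 and 43.66 FPKM (-0.95, SE 0.04).

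RRP12, a factor of ribosomal RNA maturation and export, had 9.25, 8.3 and 8.65 FPKM in mutant and 16.66, 17.62 and 15.69 FPKM in wild type (-0.96). WAPL, which releases cohesin from chromatin, had 16.23, 15.99 and 15.9 FPKM against 28.34, 31.22 and 30.29 FPKM (-0.93). MTPAP, the mitochondrial poly(A) polymerase, stood at -0.94, GPAM, which starts glycerolipid synthesis, at -0.93 and FAM241B at -0.89. Every one of these had mutant values below wild type in all 3 libraries, which the rule that picked them requires.

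BAG3, a co-chaperone of HSP70 that is known to be heat shock-inducible (119651380 to 119677819, plus strand), had 17.16, 16.02 and 13.94 FPKM in mutant and 26.35, 30.76 and 29.29 FPKM in wild type (-0.90, SE 0.07). It and DDIT4, both on the list of acutely induced genes, thus departed from the common shift in opposite directions.

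The expression minimum fell between genes with unlike counts, because FPKM is scaled to exonic length. The members just inside it were NUTM2A-AS1 (mean 1.00 FPKM), PITX3 (1.03) and RNU6-1121P (1.04), with fold changes of -0.26, 0.54 and -3.54 in a fit without the minimum. Those just outside it were ZNF32-AS2 (0.982), ENSG00000288823 (0.945) and ENSG00000259994 (0.937), with -0.46, -0.60 and -0.81. RNU6-1121P rests on 0, 1 and 0 counts in mutant and 3, 2 and 6 in wild type. NUTM2A-AS1, with an exonic length of 24071 bases, had 439, 350 and 404 counts in mutant and 434, 483 and 424 in wild type. Below the minimum, 172 chromosome 10 genes with at least 60 counts in total had a median of -0.20, and 3663 such genes elsewhere had 0.27.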

How the data were processed

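Genotype labels put the 6 libraries in 2 groups of 3. Per the file headers, the authors deposited counts (whole numbers) and FPKM for each library, with gene coordinates and exonic lengths. The submitters' processing notes name cutadapt, HISAT2 2.0.1, HTSeq and GRCh38. No source used here gives the annotation release or strand use. Deposited FPKM equalled, within 0.011 for 100% of values, those computed from counts, exonic lengths and library totals, so they are scaled to totals and not by TMM.

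Members, gene lists and alternatives were chosen with earlier results of these data known. Genes with a mean of at least 1 FPKM were fitted on counts with edgeR 4.0.16 (R 4.3.3), TMM scaling and the two-sided quasi-likelihood F-test, with genotype alone in the model. P-values were Benjamini-Hochberg adjusted over all 12550 genes, and calls used 0.05. Fold changes are log2, mutant minus wild type, with an SE from the fit. The fit was checked on simulated counts with known changes in a small set of genes and a uniform shift of chromosome 10. That check did not cover change as broad as seen here, or shifts of other chromosomes. Gene kinds came from GENCODE release 29; 25 members have no symbol.

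Genes were named by rule among protein-coding members: the 8 furthest above and 8 furthest below the chromosome median with at least 5 FPKM in the higher group and groups apart after the common shift is taken off; the 8 least changed and the 4 nearest the median with at least 20 FPKM; up to 4 per list with the highest FPKM; and those beside the minimum. Other named genes illustrate a list, a call or an overlap and were chosen after their values were seen. Not every gene under this rule is reported here. Same-numbered libraries did not deviate together (correlations of -0.0274 to -0.00275), so numbers were not used as pairs. Depth was 16013460 to 20349609 counts per library. Alternatives used DESeq2 1.42.0 and limma 3.58.1 (on log2(FPKM + 1) or 0.1), other scalings and minimums, leaving out each library, and a block for replicate number.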

Additional observations from a re-analysis of the deposited data

How the results depend on the processing

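The median difference between chromosome 10 and other chromosomes was -0.37 as reported and ran from -0.38 to -0.32 over 15 alternatives. It was -0.32 with limma on log2(FPKM + 1), where 14 members in place of 23 lay more than 0.5 below the chromosome median. It was -0.36 with a minimum of 5 FPKM, which leaves 303 members, 19 of them in place of 66 more than 0.5 above the median and 8 below. Without an expression minimum (1280 genes) it was -0.35, with 371 above and 290 below. Leaving out each library in turn gave median differences of -0.380731 to -0.369608, 343 to 371 called members (364 as reported), 61 to 74 above and 22 to 27 below. With the replicate number as a block, 359 members were called, the difference was -0.37, and 64 lay above and 23 below. The ratio of chromosome 10 shares, 0.777, was 0.782 over all assigned counts, 0.773 over genes outside chromosomes 10, 16, 20 and 22, and 0.768 for members without the 5 with the highest counts. Among the 70 named genes, 1020 of 1047 values kept direction and side of the threshold, 22 lost the call, 5 gained it and 0 reversed. TRUB1, PDCD4, LIPA and IDI1 account for the lost calls, so their calls depend on the setting. Departures of members below 5 FPKM are in general the least precise, with a median SE of 0.16 at 1 to 2 FPKM and 0.09 at 2 to 5 FPKM. At 50 FPKM or more the median SE was 0.04. With 3 libraries per group and no label for clone, p-values set group differences only against the spread between these libraries, as estimated with information shared across genes. Any spread between clones may lie outside it.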
